A study of Rattus norvegicus with 6 samples.

Results

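The genes described here encode the proteins of the cytosolic ribosome. They were taken from the deposited count table by gene symbol, as the rows named Rpl or Rps with a number and at most a final a or x, together with Rplp0, Rplp1, Rplp2 and Rpsa. Of 21857 rows, 75 matched, and 70 of them had a mean of at least 1 CPM, a count scaled to a common library total, over the 6 libraries, namely 42 large subunit (60S) and 28 small subunit (40S) genes. The samples were rat adipose-derived mesenchymal stem cells of the Sprague Dawley strain, stromal cells grown from fat, cultured with serum in a DMEM made without branched chain amino acids (BCAA: leucine, isoleucine and valine). Both groups carried 100 µM hydrogen peroxide for 12 h, with vehicle in 3 libraries and with 3.432 mM BCAA in 3 libraries. Nothing in the labels ties a replicate to its own culture or animal, and the p-values below rest on a spread among libraries that may be technical in part. No group without hydrogen peroxide was analysed here.

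A eukaryotic ribosome holds 1 copy of most of its proteins, so cells make the proteins of both subunits in matched amounts. Their mRNAs start with a terminal oligopyrimidine (TOP) tract, a C followed by a run of pyrimidines, which lets the kinase complex mTORC1 and the binding protein LARP1 control their translation and storage together. Leucine is a well known activator of mTORC1. Free ribosomal proteins of the large subunit, Rpl5 and Rpl11 in first place, bind the p53 ligase Mdm2 when ribosome assembly is disturbed.

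The starts of the genes are shown because the TOP tract is the feature that these mRNAs are known to share. RefSeq (assembly GRCr8) gave 1 promoter for 55 of the 70 genes. In 22 of the 55 (40.0%), the annotated start was a C followed directly by at least 4 pyrimidines, read on the gene's own strand, against 2.60% of 24206 promoters in the same table. Each line below runs from 15 bases before the annotated start to 15 bases from it, and the capitals mark that tract, up to the window's end. The 5 genes were chosen because all their BCAA libraries lay below all their vehicle libraries. Rpl28 also met this rule with a tract at its start and is not shown. In genome coordinates these are Rplp0 at chr12:46718376-46718405 (minus strand), Rpl22 at chr5:168117946-168117975 (plus strand), Rpl35 at chr3:43165907-43165936 (minus strand), Rpl37a at chr9:81748076-81748105 (plus strand) and Rps15 at chr7:10068101-10068130 (minus strand).
Rplp0: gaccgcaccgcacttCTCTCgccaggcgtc
Rpl22: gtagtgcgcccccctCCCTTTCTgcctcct
Rpl35: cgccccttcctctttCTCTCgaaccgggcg
Rpl37a: gcatgcccgttgcgtCTCTTCCTCTTCggg
Rps15: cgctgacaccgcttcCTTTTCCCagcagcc

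In the other genes the tract was not at the annotated start. Allowing a C with at least 5 following pyrimidines anywhere in the same 30 bases, 42 of 55 genes held one, against 21.1% of all promoters. Rpsa, Rpl5 and Rps16 had the same separation of groups as the genes above, and Rpl36 was the large subunit gene that lay higher with BCAA. Capitals mark the longest such tract, and Rps16 and Rpl36 held none at the start that RefSeq gives. Their windows are Rpsa at chr8:128728864-128728893 (plus strand), Rpl5 at chr14:1995211-1995240 (minus strand), Rps16 at chr1:92770643-92770672 (plus strand) and Rpl36 at chr9:1533765-1533794 (plus strand).
Rpsa: CCTTTCCgcgctaccctggaacgggtccgt
Rpl5: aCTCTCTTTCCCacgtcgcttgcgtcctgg
Rps16: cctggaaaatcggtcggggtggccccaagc
Rpl36: ctgtccggccgccatcggaaagctgcaggt

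Over the 300 bases of each promoter, the letters CCGGAAG, the core of sites for ETS family factors, occurred on either strand in 18 of 55 genes, against 9.49% of all promoters. Set beside the differences described below, the median log2 fold change was -0.17 in the 22 genes with a tract at the start and -0.17 in the 33 without. It was -0.18 in the 18 genes with CCGGAAG and -0.16 in the 37 without.

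Library totals ran from 12725344 to 15739731 counts. Mitochondrially encoded genes took 4.92% and 4.91% of counts in vehicle replicates 2 and 3 and 5.60% to 6.24% in the BCAA libraries. Their share was highest, at 6.58%, in vehicle replicate 1. For the genes and gene lists described below, the value without this library is given too where it moves by over 1.5 times. The 8 stromal markers measured summed to between 10663 and 13364 CPM with vehicle and between 11614 and 12482 CPM with BCAA. Among them, Col1a1 had 76108, 133611 and 107609 counts across the vehicle replicates, in order, and 101882, 117352 and 82592 with BCAA. None of the 8 passed the test with all 6 libraries. Without vehicle replicate 1, 5 of the 8 lay above 0 and 3 below. In that fit 1 passed (Col1a1, at -0.29), against 4.07% of all genes. Of the markers of other cells, the endothelial gene Cdh5 had 0 to 3 counts per library, but Tek, of the same list, had 40 to 79. The adipocyte gene Adipoq had 0 to 8 counts per library and Fabp4, of the same list, 57 to 89. The T cell gene Cd3e had 0, while the leukocyte gene Ptprc was at 14.1 to 17.6 CPM. The 3 leukocyte markers tested summed to 58.8 to 63.4 CPM with vehicle and 63.3 to 68.5 CPM with BCAA. The smooth muscle and pericyte list was lower with BCAA, with 5 of 5 log2 fold changes below 0. Of these genes 2 (Acta2 and Tagln) passed the test, against 0.228% of all genes. Without vehicle replicate 1, 3 of the 5 passed (Acta2, Cnn1 and Tagln), against 4.07% of all genes. The list summed to 855 to 921 CPM with vehicle and 582 to 606 CPM with BCAA. Its part in the ribosomal protein results was not tested.

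The ribosomal protein genes lay slightly lower with BCAA as a body, and none of them passed the test alone. Of the 70 genes, 65 had a log2 fold change below 0 (92.9%), against 49.2% of the 12298 genes tested. The median was -0.16, a level lower by 10.8%, against 0.00 over all genes, and the quartiles were -0.23 and -0.11. With edgeR's quasi-likelihood test, 0 of 70 genes were called at an adjusted p of 0.05, where 0.228% of all genes were called (28 genes). With DESeq2 the count was 1 of 70 (Rpsa), against 1.03% of all genes, and without a filter on low counts it was 1 of 70, against 0.748%. At an unadjusted p under 0.05, 25 genes were lower (35.7%) and 1 was higher, against 5.84% and 5.95% of all genes. The SE of these 70 log2 fold changes had a median of 0.08. In 19 of 70 genes (27.1%) every BCAA library lay below every vehicle library, against 8.76% of all genes, and in 0 of 70 every BCAA library lay above, against 9.29%. The 19 were 12 large and 7 small subunit genes.

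**Figure D1:**
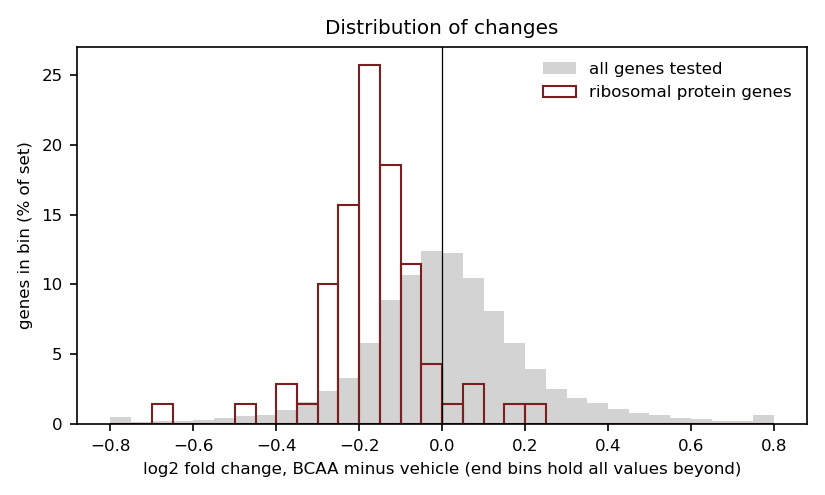
Log2 fold change, BCAA minus vehicle (horizontal), and the share of each set of genes in bins of equal width (vertical, %), for all 12298 genes tested (grey) and the 70 ribosomal protein genes (outline). The median of the ribosomal protein genes is at -0.16 and that of all genes at 0.00.

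Highly counted genes as a class lay a little lower too, and the ribosomal protein genes lay below them. Among the 1971 genes with a mean of at least 100 CPM, 60.8% had a log2 fold change below 0 and the median was -0.03. Of the 52 ribosomal protein genes at that level, 51 were below 0 and the median was -0.17. At an unadjusted p under 0.05, 24 of the 52 were lower, against 11.9% of all genes at that level.

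In each library the 75 genes together took a share of the counts. This share was 4.0%, 3.66% and 3.63% across the vehicle replicates, in order, and 3.29%, 3.38% and 3.54% across those with BCAA. The groups did not overlap, but BCAA replicate 3 was nearest to vehicle replicates 2 and 3. The means were 3.76% ± 0.209 with vehicle and 3.40% ± 0.124 with BCAA (SD, n = 3 each). The difference of -0.36 percentage points was -0.24 without vehicle replicate 1. The 95% Wilson interval of each share reached at most 0.0103 percentage points to either side, which covers counting error only. Since counts are shares of a library, a lower amount per cell and fewer cells with high amounts cannot be told apart, nor can a fall of these mRNAs from a rise of the rest.

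Both subunits lay lower with BCAA. The large subunit took 2.57% ± 0.119 of the counts with vehicle and 2.35% ± 0.0853 with BCAA, and the small subunit 1.20% ± 0.0901 and 1.06% ± 0.0384 (SD, n = 3 each). Of 42 large subunit genes 41 had a log2 fold change below 0, with a median of -0.16, and of 28 small subunit genes 24 did, with a median of -0.18. Unadjusted p was under 0.05 for 15 large and 10 small subunit genes that were lower and for 1 large subunit gene that was higher. Counts on the large subunit divided by counts on the small subunit gave 2.08, 2.15 and 2.20 across the vehicle replicates, in order, and 2.22 in each replicate with BCAA. The ratio was thus highest and most even in the BCAA libraries. No test of a difference between subunits was made, since their genes are not replicates.

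**Figure D2:**
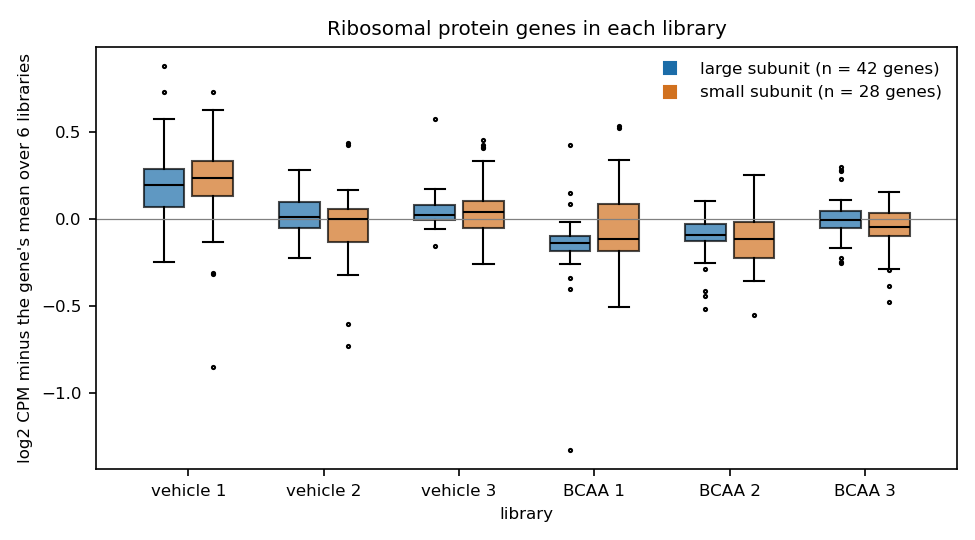
Log2 CPM of each gene minus its mean over the 6 libraries (vertical), by library (horizontal), for 42 large and 28 small subunit genes. Boxes run between the quartiles of the genes with the median as a line, whiskers reach to 1.5 box lengths and dots are genes beyond. Vehicle replicate 1 is the highest library, with medians of 0.19 and 0.23, and BCAA replicate 3 lies near 0, at -0.01 and -0.05.

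The genes differed among libraries within a group as well as between groups. The median deviation of the 70 genes from their own means was 0.21, 0.01 and 0.03 across the vehicle replicates, in order, and -0.14, -0.10 and -0.01 across those with BCAA. All 3 vehicle medians lay above all 3 BCAA medians, but vehicle replicate 2 and BCAA replicate 3 were almost level. Vehicle replicate 1 held the highest value of 46 of the 70 genes, and BCAA replicate 1 the lowest of 40. Without vehicle replicate 1, the medians were -0.11 for both subunits, and 59 of 70 genes were below 0, against 47.9% of all genes.

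Without vehicle replicate 1, 5 of 70 ribosomal protein genes were called lower (edgeR), against 2.2% of all genes in that direction and 4.07% in either, and none was called higher. Among them were Rpsa, Rpl15, Rpl18 and Rpl8. Leaving out any one of the other libraries called none of the 70, against 0.0894% of all genes without vehicle replicate 2 or 3, 0.0569% without BCAA replicate 1 and 0.0651% without BCAA replicate 2 or 3. In all 5 genes vehicle replicates 2 and 3 lay above every BCAA library. The 5 were called from these same libraries, so this separation adds no support to the calls.

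**Figure D3:**
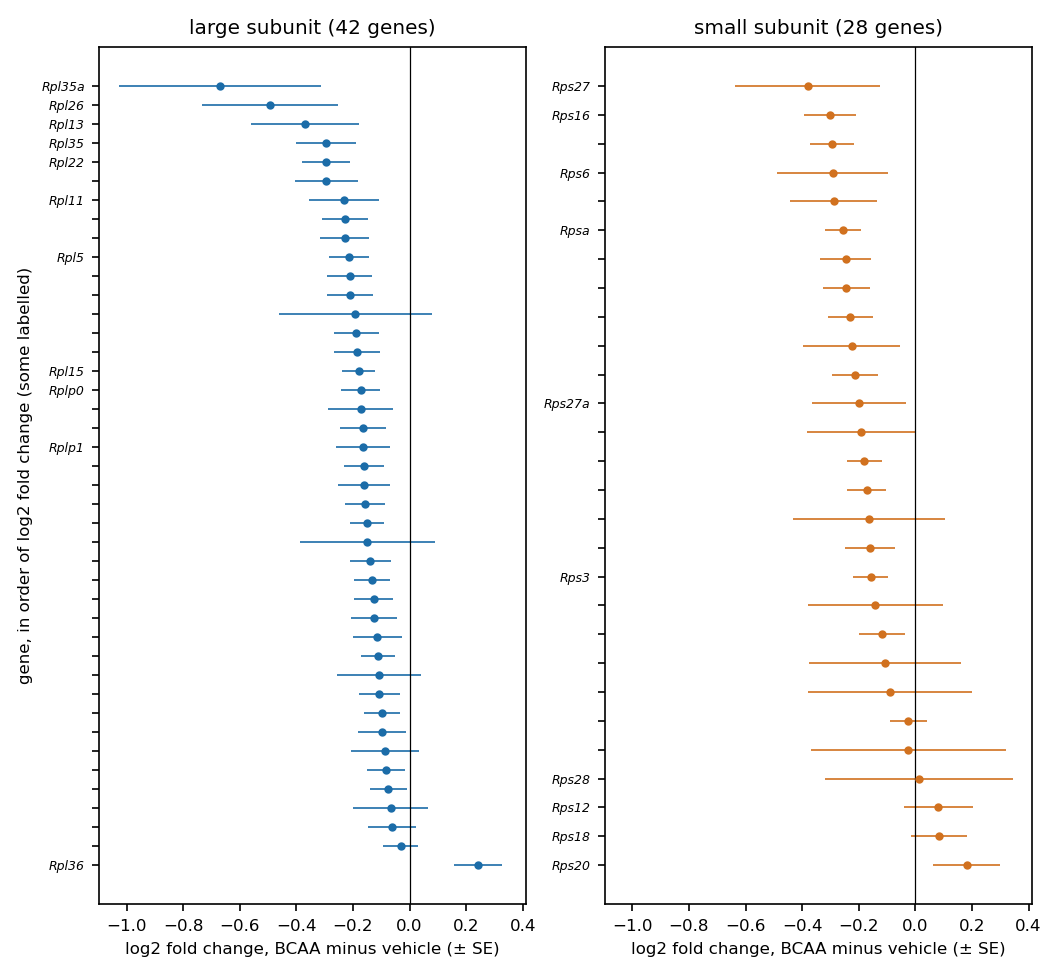
Log2 fold change, BCAA minus vehicle, with its SE (horizontal), for each of the 42 large and 28 small subunit genes, ordered by size, with some of the genes named in the text labelled. 65 genes lie left of 0, most between -0.3 and -0.05, and the widest bar is that of Rpl35a (SE 0.36).

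Among the small subunit genes, Rpsa and Rps16 were among those with the smallest p-values. Rpsa encodes a 40S protein that is also known as the laminin receptor. Rpsa measured 1735, 1728 and 1604 CPM in the vehicle libraries, in replicate order, and 1335, 1450 and 1458 CPM under BCAA. All 3 BCAA libraries lay below all 3 vehicle libraries. It had a log2 fold change of -0.26 (SE 0.06) and an adjusted p of 0.12 (edgeR), the smallest p of the small subunit genes, and over all alternatives the adjusted p ran from 0.017 to 0.42.

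Rps16 measured 1166, 909 and 879.9 CPM in the vehicle libraries, in replicate order, and 779.5, 787 and 831 CPM under BCAA. Rps16 encodes a protein of the 40S head. Its groups did not overlap, although BCAA replicate 3 came close to vehicle replicate 3, and it had a log2 fold change of -0.30 (SE 0.09) and an adjusted p of 0.19 (edgeR). Vehicle replicate 1 was the highest library, and without it the log2 fold change of Rps16 was -0.16. Rps15 and Rps3 were also among the 7 small subunit genes without overlap. Rps3 sits at the mRNA entry site of the 40S subunit, and its log2 fold change was -0.16 (SE 0.06).

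Among the large subunit genes, Rpl22, Rpl15 and Rpl5 had the smallest p-values. Rpl22 encodes an RNA-binding 60S protein with a close paralog, Rpl22l1. Rpl22 measured 153, 128 and 135 CPM in the vehicle libraries, in replicate order, and 104, 112 and 122 CPM under BCAA. The groups did not overlap, and the gene had a log2 fold change of -0.30 (SE 0.08) and an adjusted p of 0.16 (edgeR). Rpl15 measured 781, 808 and 779 CPM in the vehicle libraries, in replicate order, and 692, 689 and 710.2 CPM under BCAA. Rpl15 had little spread within either group, with means of 790 ± 16.1 CPM in the vehicle libraries and 697 ± 11.4 CPM in the others (SD, n = 3 each), and a log2 fold change of -0.18 (SE 0.06) and an adjusted p of 0.23. Without vehicle replicate 1 the adjusted p of Rpl15 was 0.037.

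Rpl5 and Rpl11 form a particle with 5S rRNA and are the main Mdm2-binding ribosomal proteins. Rpl5 measured 1004, 929 and 869.6 CPM in the vehicle libraries, in replicate order, and 750.1, 818 and 847 CPM under BCAA. The BCAA libraries lay below the vehicle libraries, with a log2 fold change of -0.22 (SE 0.07) and an adjusted p of 0.25 (edgeR). Rpl11 measured 858, 597 and 609 CPM in the vehicle libraries, in replicate order, and 571, 561 and 625 CPM under BCAA. Here only vehicle replicate 1 stood high, the other 5 libraries lay close together, and the groups overlapped, with a log2 fold change of -0.23 (SE 0.12) that became -0.04 without that library.

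The stalk of the large subunit recruits translation factors to the ribosome. Its base protein is encoded by Rplp0. Rplp0 measured 3489, 3279 and 3149 CPM in the vehicle libraries, in replicate order, and 2761, 2944 and 3091 CPM under BCAA, which do not overlap. It had a log2 fold change of -0.17 (SE 0.07) and an adjusted p of 0.33 (edgeR). The acidic stalk gene Rplp1 had a log2 fold change of -0.16 (SE 0.09) and Rpl12, beside the stalk's base, one of -0.13 (SE 0.08), and both overlapped. These values were -0.04 for Rplp1 and -0.06 for Rpl12 without vehicle replicate 1. Rplp2, the partner of Rplp1, had 2 counts in vehicle replicate 1 and 0 in every other library, so it gave no comparison.

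Around the peptide exit tunnel, 7 of 8 listed genes were tested, and all 7 lay below 0, against 92.9% of the 70 genes. Their median was -0.17, or -0.09 without vehicle replicate 1. The other one, Rpl23a, was listed at 0 counts in every library. Rpl35 and Rpl26 had the largest differences of the 7. Rpl35 measured 759, 566 and 555 CPM with vehicle, against 475, 524 and 533 CPM under BCAA, without overlap, and had a log2 fold change of -0.30 (SE 0.10) and an adjusted p of 0.30 (edgeR). Vehicle replicate 1 stood high here too, and without it Rpl35 was at -0.13. Rpl26 measured 418, 233 and 265 CPM in the vehicle libraries, in replicate order, and 249.7, 189.7 and 212 CPM under BCAA. For Rpl26 vehicle replicate 1 was far above the rest and the groups overlapped, and its log2 fold change of -0.49 (SE 0.24) became -0.19 without that library.

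**Figure D4:**
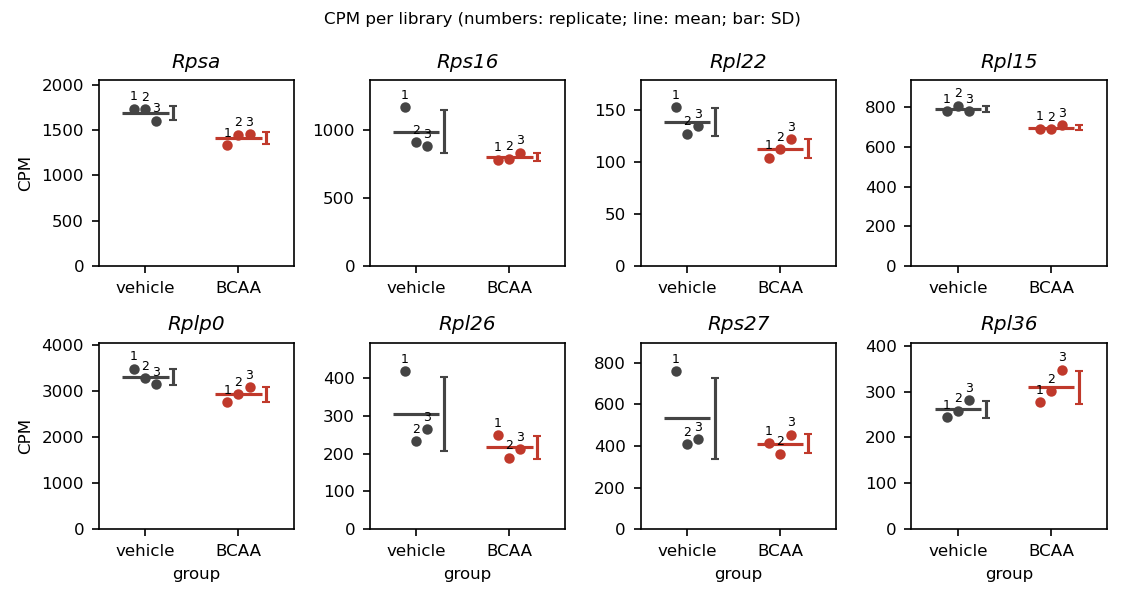
CPM (vertical, from 0) in each library by group (horizontal) for 8 ribosomal protein genes. Points are libraries numbered by replicate, horizontal lines are means and bars are SD (n = 3 each). Rpsa, Rps16, Rpl22, Rpl15 and Rplp0 show no overlap, Rpl26 and Rps27 show a high vehicle replicate 1, and Rpl36 is higher in the BCAA libraries with overlap.

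Among the vehicle libraries, replicate 1 was high in a subset of genes. In 14 of 70 genes (20.0%) that library was over 1.3 times the mean of the other vehicle libraries, against 6.72% of all genes. The BCAA libraries do not enter this ratio. Rps27, a zinc finger protein of the 40S subunit, measured 758, 409.6 and 433 CPM with vehicle, against 413, 363 and 454 CPM under BCAA. Apart from that library the values of the groups lay among each other, and the log2 fold change of -0.38 (SE 0.26) was -0.04 without it. Rps27a, which is made as a fusion with ubiquitin, measured 1287, 854 and 861 CPM with vehicle, against 784, 843 and 988 CPM under BCAA. Its log2 fold change of -0.20 (SE 0.17) turned to 0.03 without vehicle replicate 1. Rps25 and Rps24 turned sign in the same way, from -0.16 to 0.18 and from -0.22 to 0.02. Not all genes had this library high: Rps2 measured 201, 333 and 265 CPM with vehicle, against 186, 295 and 243 CPM under BCAA, with replicate 1 lowest in both groups.

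**Figure D5:**
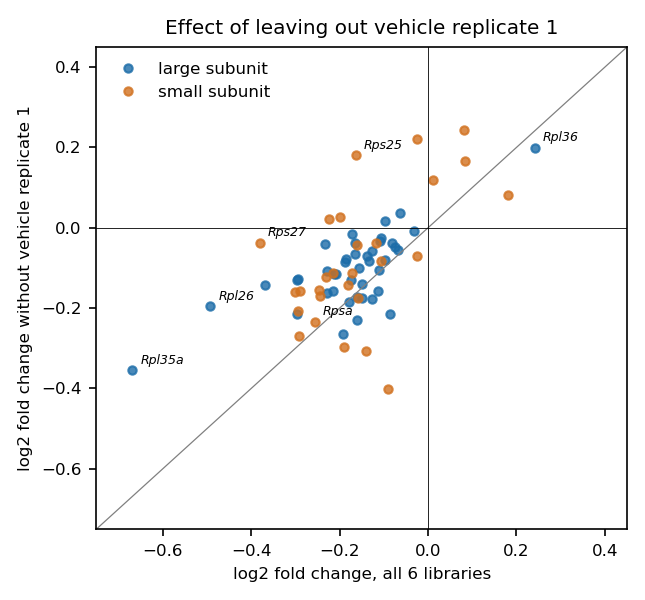
Log2 fold change of each of the 70 genes with all 6 libraries (horizontal) against that without vehicle replicate 1 (vertical), with the line of equal values. Points above the line had a higher value without that library, such as Rps27 (-0.38 to -0.04), Rps25 (-0.16 to 0.18) and Rps12 (0.08 to 0.24), while Rpsa stayed near it (-0.26 to -0.23).

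Only 5 of 70 genes had a log2 fold change above 0, namely Rpl36, Rps20, Rps18, Rps12 and Rps28. Rpl36 measured 245, 258 and 281 CPM in the vehicle libraries, in replicate order, and 277, 301 and 348 CPM under BCAA. Vehicle replicate 3 lay above BCAA replicate 1, so the groups overlapped. Rpl36 had a log2 fold change of 0.24 (SE 0.08) and an adjusted p of 0.28 (edgeR), 1.18-fold higher with BCAA, and was above 0 in each alternative. Rps20 measured 16.3, 20.2 and 21.1 CPM with vehicle, against 22.5, 22.7 and 20.0 CPM under BCAA, with overlap and a log2 fold change of 0.18 (SE 0.12). The 3 others had values of 0.08 (SE 0.10), 0.08 (SE 0.12) and 0.01 (SE 0.33) for Rps18, Rps12 and Rps28. Rps20 was at 0.08, Rps18 at 0.17, Rps12 at 0.24 and Rps28 at 0.12 when vehicle replicate 1 was left out. Rpl36 and Rps20 were the 2 genes above 0 in all 14 alternatives, whereas 50 genes were below 0 in all of them and 18 changed sign in at least 1. The 14 include the fit with copy rows added to 10 genes, described below. Rps18 changed sign only in that fit, where it was at -0.16.

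Rps6, the substrate of the S6 kinases that mTORC1 activates, was counted thinly in these libraries. Rps6 measured 22.2, 18.7 and 24.2 CPM in the vehicle libraries, in replicate order, and 24.3, 13.1 and 15.7 CPM under BCAA. BCAA replicate 1 was level with the highest vehicle library, and the log2 fold change of -0.29 (SE 0.20) had an adjusted p of 0.60 (edgeR). Within the large subunit, the genes nearest to 0 were Rpl13a (-0.03, SE 0.06) and Rpl27a (-0.06, SE 0.08), which were at -0.0077 and 0.037 without vehicle replicate 1. Besides Rpl26 and Rps27, the lowest log2 fold changes were those of the thinly counted genes Rpl35a, at 1.01 to 5.16 CPM (-0.67, SE 0.36), and Rpl13, at 21.7 to 43.8 CPM (-0.37, SE 0.19), and neither separated the groups. Vehicle replicate 1 was the highest library of both, and without it they were at -0.35 and -0.14.

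Of the 18 genes listed for Diamond-Blackfan anaemia, an inherited failure of red cell production, 17 were in the table and tested, and 15 lay below 0 and none was called (median -0.22). Unadjusted p was under 0.05 for 6 of the 17, all lower, against 5.84% of all genes and 11.9% of genes with a mean of at least 100 CPM. Among the 70 ribosomal protein genes, 35.7% were lower at that p. With vehicle replicate 1 left out, 13 of the 17 lay below 0 and the median was -0.15. In that fit 2 of the 17 were called (Rpl15 and Rpl18), against 4.07% of all genes. Rps19, the gene most often mutated in that disease, had 7 to 12 counts in each library, a mean of 0.699 CPM, and is therefore outside the 70 genes, with a log2 fold change of 0.07 (SE 0.44), or 0.19 (SE 0.54) without vehicle replicate 1. Just inside the level minimum were Rps28 at a mean of 2.28 CPM, Rpl35a at 3.00 CPM and Rpl36a at 3.11 CPM. Rpl7a and Rps14, at 4.87 and 7.45 CPM, were the other genes under 10 CPM, at log2 differences of -0.19 (SE 0.27) and -0.19 (SE 0.19), and Rpl36a had -0.15 (SE 0.24). Rps14 was at -0.30 without vehicle replicate 1. Outside the minimum, Rpl38 had 1 count in 2 libraries, and Rpl10a and Rpl23a were listed at 0 in all 6, where 3 counts would be 0.191 to 0.236 CPM.

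The table also held 29 rows named after a ribosomal protein gene with a pseudogene or like ending, and 16 of them had a mean of at least 1 CPM. Some of these rows held more counts than the gene they are named after. Rps21 had a mean of 12.1 CPM and Rps21-ps1 319 CPM, and Rps18 had 34.5 CPM and Rps18l1 519 CPM. Which of such rows the reads came from is uncertain, since reads of near-identical copies can be split or dropped in counting, and levels are not compared between genes.

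For 10 genes the counts of such a row were added to the gene, a choice made after seeing the data. The 10 sums all lay below 0, with a median of -0.16, and none was called. Of the 10 genes alone, all but Rps18 already lay below 0, as did 92.9% of the 70 genes. Rps18 turned from 0.08 alone to -0.16 (SE 0.06) with Rps18l1, and Rps21 went from -0.09 to -0.20 (SE 0.08) with Rps21-ps1. Rpl34 moved the other way, from -0.21 to -0.11 (SE 0.07), and Rpl34-ps1 alone was at 0.27 (SE 0.09). Rps21 alone was at -0.40 and Rpl34 alone at -0.11 without vehicle replicate 1, and the sums were not fitted without that library.

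Of 8 ribosomal proteins and paralogs tested outside the symbol rule, 6 were below 0, none was called, and the median was -0.10. With vehicle replicate 1 left out, 4 of the 8 were below 0 and the median was -0.01. The gene Rack1, for a signalling scaffold on the 40S subunit, differed by -0.17 (SE 0.07) on the log2 scale, or -0.11 without vehicle replicate 1, and Rpl7l1, a paralog of Rpl7, -0.12 (SE 0.08). Fau, which encodes a 40S protein fused to a ubiquitin-like domain, was listed at 0 in all libraries.

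Other mRNAs known for a TOP tract, many of them for translation factors, were looked at next. Of 17 tested, 16 had a mean of at least 100 CPM, where 60.8% of all genes lay below 0. In this list 13 of 17 were below 0, none was called, and the median was -0.10. With vehicle replicate 1 left out, 10 of 17 were below 0, the median was -0.03, and Eef2 (-0.21) and Hnrnpa1 (0.20) were called. In that fit 4.07% of all genes were called. The elongation factor subunit genes Eef1d and Eef1g differed by -0.19 (SE 0.06) and -0.16 (SE 0.07) on the log2 scale, with the BCAA libraries below the vehicle libraries in both. The RNA-binding protein gene Hnrnpa1 had 0.15 (SE 0.07), with the BCAA libraries above the vehicle libraries. With all 6 libraries, unadjusted p was under 0.05 for 2 lower genes and 1 higher gene of the 17, and the share of lower genes was near the 11.9% of all genes at that level.

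Regulators upstream of TOP mRNAs, among them the genes for mTOR, Larp1 and the S6 kinases, lay close to 0 as a list. Of 13 tested, 9 were above 0 and 4 below, none was called, and the median was 0.01. When vehicle replicate 1 was left out, 6 were above 0 and 7 below, with a median of -0.02. The smallest p belonged to Cnbp, an RNA-binding protein that contacts these mRNAs (-0.09, SE 0.06), followed by the cap-binding factor Eif4e (-0.17, SE 0.11) and its inhibitor Eif4ebp1 (0.08, SE 0.07). Eif4e was at 0.0026 and Eif4ebp1 at 0.04 without that library. In the Mdm2 and p53 list, 6 of 6 genes were above 0 and none was called (median 0.15), where 49.2% of all genes lay below 0. By smallest p, the cell cycle inhibitor Cdkn1a had 0.21 (SE 0.06), Mdm2 0.24 (SE 0.07) and the ubiquitin ligase Ube2o 0.13 (SE 0.08). In each of them all BCAA libraries lay above all vehicle libraries, as in 9.29% of all genes. Adjusted p was 0.18 each for Cdkn1a and Mdm2 (edgeR). Without vehicle replicate 1, 5 of the 6 were above 0 with a median of 0.13, and Ube2o was at 0.08. Mdm2 was then at 0.33 (SE 0.05) and was called with an adjusted p of 0.0010 (edgeR), where 4.07% of all genes were called.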

How the data were processed

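RNA sequencing gave 6 libraries, 3 in each group. The authors deposited 1 table of raw counts per gene symbol. Trimmomatic, FastQC, STAR, HTSeq and rn6 appear in the submitters' processing notes. Versions, annotation, strand setting and the handling of reads with several matches: not given in the sources used here. Columns were matched to libraries by name.

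Counts were tested with edgeR 4.0.16 under R 4.3.3 (robust quasi-likelihood fit, TMM scaling, filterByExpr with a minimum count of 10 and a minimum total of 15), the group being the only term. The filter left 12298 genes, which held 99.9% of counts. Adjustment was by Benjamini-Hochberg over these genes, with calls under 0.05. An SE was taken as the log2 fold change over the root of F. CPM values use TMM-scaled sizes, but the minimum of 1 CPM used library totals. Deviations by library use log2 CPM with a prior count of 2. Chi-square per degree of freedom was 2.65 to 18.1 over the 15 pairs of libraries. The tests were tried on simulated data.

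The members, the lists and the tests were chosen with earlier results of these data known. Named in each subunit were the 5 genes with the smallest p, the 3 highest and the 3 lowest log2 fold changes, every gene under 10 CPM and every symbol match left out, with Rplp0, Rplp1, Rplp2, Rpl5, Rpl11, Rpl26, Rps6, Rps19, Rps27a and Rpsa, and up to 3 genes of each other list by p. Rps2, Rps3, Rps15, Rps21, Rps24, Rps25, Rpl8, Rpl12, Rpl18, Rpl34, Rpl35, Rpl37a, Eef2 and Aamp were chosen after their values were seen. Host genes of snoRNAs (9 symbols) were not analysed here, and some genes that the rule names are not reported here. Alternatives were DESeq2 1.42.0, other scalings, no filter, no robust fit, the replicate number as a block and each library left out. A fit with copy rows added to 10 genes, made after seeing the data, was a further one.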

Additional observations from a re-analysis of the deposited data

How the results depend on the processing

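The number of ribosomal protein genes called was 1 under DESeq2 (Rpsa), 1 when no gene was filtered out and between 0 and 5 with 1 library left out, the 5 without vehicle replicate 1. It was 0 under the other scalings and without robust estimation. Over all genes the count was 127 under DESeq2, 124 when no gene was filtered out, and between 7 and 500 with 1 library left out, the 500 without vehicle replicate 1; the cause was not tested. The replicate numbers are shared by the groups but did not act as pairs: deviations of equal numbers from their group means correlated at -0.07, 0.11 and -0.15 over 12298 genes. With the number as a block, 6 genes were called over all genes, 0 of them ribosomal protein genes. Subunit medians kept their sign in all alternatives, from -0.20 to -0.11 for the large and from -0.26 to -0.11 for the small subunit. The difference in the share of counts (BCAA minus vehicle) ran from -0.43 to -0.24 percentage points with 1 library left out, and was -0.38 with the ribosomal proteins outside the symbol rule.

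Of the 29 named genes tested, a sign changed in 11 of 372 values, each with 1 library left out. These values do not include the fit with copy rows added. With 1 library left out, Rpl27a ran from -0.13 to 0.037, Rps27a from -0.30 to 0.027, Rps28 from -0.30 to 0.26, Rpl7a from -0.53 to 0.078, Rps12 from -0.018 to 0.24, Rps19 from -0.14 to 0.30 and Rpl36a from -0.34 to 0.0020. Of these, Rpl27a and Rps27a changed sign without vehicle replicate 1, Rps28 without vehicle replicate 2 (-0.30), BCAA replicate 1 (-0.08) or BCAA replicate 2 (-0.10), and Rps12 without vehicle replicate 3. Rpl7a did so without vehicle replicate 3 or BCAA replicate 2 (0.01), Rps19 without vehicle replicate 3 (-0.05) or BCAA replicate 3, and Rpl36a without BCAA replicate 1. Requiring a mean of 10 CPM kept 65 genes and no minimum kept 75. Genes under 10 CPM had an SE of 0.19 to 0.36, against a median of 0.08 over the 70.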

Other observations

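Further groups of genes that serve the ribosome were measured and hold no called gene with all 6 libraries. Dedicated chaperones and importers of ribosomal proteins lay a little below 0, with 8 of 10 genes on that side and a median of -0.06. When vehicle replicate 1 was left out, 5 of 10 lay below 0, the median was -0.03, and Aamp was called (-0.20), where 4.07% of all genes were called. Bccip, which accompanies Rpl23, differed by -0.15 (SE 0.10) on the log2 scale, the importin gene Ipo5 -0.09 (SE 0.06) and Pdcd2l, related to a chaperone of Rps2, -0.16 (SE 0.11), and in all 3 the groups overlapped. Without that library Ipo5 was at -0.05 and Pdcd2l at -0.25. Initiation and elongation factors not known for a TOP tract had 9 of 14 genes below 0 and a median of -0.04, which was -0.0088 without vehicle replicate 1. Eef1e1, which encodes a component of the multi-tRNA synthetase complex and stands in this list by its symbol, measured 52.1, 48.2 and 48.1 CPM with vehicle, against 45.3, 43.7 and 45.1 CPM under BCAA, without overlap, and had a log2 fold change of -0.15 (SE 0.08). Eif6, which keeps the large subunit from joining too early, had -0.11 (SE 0.07), and the helicase gene Eif4a1 -0.08 (SE 0.07), or -0.02 without vehicle replicate 1.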
